A study of Mus musculus with 26 samples.

Results

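Nr2f1 and Nr2f2 encode COUP-TFI and COUP-TFII, a pair of closely related orphan nuclear receptors. Each gene has 1 row in each of the RNA count tables of this study, so the members were 2 of the 41442 gene rows, taken by symbol. The study measured RNA in 6 groups of sorted mouse cells, 3 libraries each. Open chromatin was measured by ATAC-seq in the 4 fetal kinds of cell, 2 samples each, and not in the uterine cells. Cells carried a Rosa-Tomato reporter switched on by a Cre driver, and the dams had received 1 mg tamoxifen intraperitoneally at embryonic days E12.5 and E13.5. The labels give this treatment for the dams of both driver lines.

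The 4 fetal groups were Gli1+ cells (Gli1-CreER; Rosa-Tomato) of the mesonephros, the tissue that holds the reproductive ducts, from XX and XY embryos at E14.5 and at E16.5. The 2 uterine groups came from female mice at E19.5, labelled neonatal, and were Gli1+ cells (Gli1-CreER; Rosa-Tomato) and Amhr2+ cells (Amhr2-Cre; Rosa-Tomato). The Gli1 driver marks cells that had expressed a hedgehog target when tamoxifen was given, and the Amhr2 driver marks cells with a present or past use of the anti-Müllerian hormone receptor gene, so each group is a reporter-defined population and not a whole tissue. The labels do not say whether the libraries of a group came from separate animals, litters or pools, and p-values therefore measure the spread between these libraries, which may be technical. Total counts ran from 23382983 to 64602477 in the fetal libraries and from 28709191 to 37541045 in the uterine ones. In every XX fetal and every uterine library Xist was at least 2620 CPM (read counts scaled to a common library size), and Ddx3y was at most 2.17 CPM. In the XY libraries Ddx3y was at least 104 CPM and Xist at most 16.2 CPM, so no library went against its sex label. The mesenchymal markers Pdgfra, Pdgfrb, Col1a1, Col3a1, Vim and Tcf21 were detected in all groups, with a sum of 21200 to 44300 CPM and none at 0 in any library.

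COUP-TFs bind direct and inverted repeats of the half-site AGGTCA, often act as repressors, and can pair with or compete against retinoid X receptors. COUP-TFII is known as a factor of mesenchyme and of veins. In the female reproductive tract it is a stromal factor downstream of hedgehog signals from the epithelium. In the embryonic mesonephros, COUP-TFII in the mesenchyme is known for its part in the removal of the Wolffian duct in XX embryos. COUP-TFI is best known from the nervous system and is less described in this tissue.

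The ATAC data were deposited as 1 list of peaks unified over all 8 ATAC samples, with no value per sample, so they place open regions beside the genes and compare no groups. Of its 71040 peaks, 70999 lie on assembled chromosomes. Sequences below were read from the mouse assembly GRCm38.p6, which is the mm10 build of the files, on the plus strand. Both genes lie on the minus strand, Nr2f1 at chr13:78188973-78199757 and Nr2f2 at chr7:70351944-70366735.

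The longest run of bases shared between any peak near Nr2f1 and any peak near Nr2f2 was 20 bases, and in both genes it lay upstream of a transcript start. In Nr2f1 the run sits 671 bp before the start of transcript Nr2f1-201, in a 299 bp peak at chr13:78200374-78200672 that overlaps an exon of the antisense gene A830082K12Rik. In Nr2f2 it sits 1182 bp before the start of transcript Nr2f2-201, in a 768 bp peak at chr7:70361412-70362179, within an intron of the longer transcript Nr2f2-202. No other of the 70999 peaks held that run on either strand, and the next longest shared run was 14 bases. The run reads in the same direction in both genes and was picked after the peak sequences had been compared. Its hits in these 2 peaks were therefore fixed, and the count over the list is a description only. How often peaks of other gene pairs share such a run was not tested. The windows are shown with the shared run in capitals, chr13:78200374-78200533 and chr7:70361695-70361854, because they are what the peaks of both genes have in common.
Nr2f1: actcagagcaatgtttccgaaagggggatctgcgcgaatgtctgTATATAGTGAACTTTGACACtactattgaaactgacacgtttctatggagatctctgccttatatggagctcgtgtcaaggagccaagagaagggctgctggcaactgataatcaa
Nr2f2: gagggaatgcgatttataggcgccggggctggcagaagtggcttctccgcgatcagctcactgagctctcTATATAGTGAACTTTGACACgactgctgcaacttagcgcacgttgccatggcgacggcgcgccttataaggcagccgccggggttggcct

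A second sequence lay in the intron of Nr2f1. The 388 bp peak at chr13:78192350-78192737 holds 2 half-sites that face each other with no base between, the inverted repeat AGGTCATGACCT. Of the 70999 peaks only this 1 had that 12-base word, and no peak near Nr2f2 had it. The word was searched after the peak had been read, and peaks differ in width. Its hit in this peak was therefore fixed, and the count does not show that the word is rarer than others of its length. It is in capitals in the window chr13:78192579-78192710.
Nr2f1 intron: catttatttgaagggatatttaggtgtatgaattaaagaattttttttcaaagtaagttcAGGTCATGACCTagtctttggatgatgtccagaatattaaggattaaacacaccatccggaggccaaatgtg

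Both receptor genes were well expressed in the fetal Gli1+ cells, Nr2f2 above Nr2f1. Scaled for exon length (5093 bp for Nr2f1 and 8625 bp for Nr2f2), Nr2f2 stood at 44.8 to 61.2 CPM per kb in the 4 fetal groups, and between 3.59% and 5.53% of the genes with a known length were higher. Nr2f1 stood at 36.9 to 49.5 CPM per kb, with 4.76% to 7.2% of genes higher. In the uterus Nr2f2 was at 41.7 CPM per kb in Amhr2+ and 39.5 in Gli1+ cells. Nr2f1 was at 14 CPM per kb in uterine Gli1+ cells and at 3.82 in Amhr2+ cells, where 61.7% of genes were higher. The transcripts of the pair share 56 distinct words of 25 bases, 1.1% of those of Nr2f1 and 0.656% of those of Nr2f2. They share 10 words of 50 bases (0.196% and 0.117%) and 0 words of 75 bases. Few exact stretches of these lengths could therefore belong to either gene, and the reads themselves were not examined.

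Nr2f2 was lowest in the XX mesonephros at E16.5. The XX libraries at E14.5 gave 517, 539 and 529 CPM and the XY libraries at E14.5 gave 502, 507 and 474 CPM. At E16.5 the XX libraries gave 426, 398.5 and 334 CPM and the XY libraries 504, 463 and 492 CPM. All 3 XX libraries at E16.5 lay below each of the other 9 fetal libraries, and the XX and XY libraries of E14.5 did not overlap, XX being higher. As means, Nr2f2 ran from 528 ± 10.9 CPM (SD, n = 3) in XX at E14.5 through 494 ± 17.7 in XY at E14.5 and 486 ± 21.1 in XY at E16.5 to 386 ± 47.1 in XX at E16.5.

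Nr2f2 fell with age in XX cells and was lower in XX than in XY cells at E16.5. Between E14.5 and E16.5 in XX cells its log2 fold change was -0.45 (SE 0.0778), a level 1.37-fold lower, with an adjusted p of 0.000314 by edgeR's quasi-likelihood test, in a comparison that called 39.6% of the 17858 genes tested. Over the same days in XY cells it was -0.02 (SE 0.0775, adjusted p 0.862), with a 95% interval from -0.189 to 0.141, against a background of 23.3% of genes called. XX against XY at E16.5 gave -0.33 (SE 0.0776, adjusted p 0.0046), where 27.3% of genes were called. That fit did not pair same-numbered libraries. With replicate number as a block shared by all fetal groups the fit gave -0.336 (adjusted p 0.00478 by edgeR's quasi-likelihood test). That block does not pair the E16.5 libraries alone. At E14.5 the sexes differed by 0.10 (SE 0.0776, adjusted p 0.563), where 6.28% were called, so the order of XX and XY there is not beyond the spread by this test.

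The change of the Nr2f2 sex difference between the ages passed the test itself. The difference at E16.5 minus that at E14.5 was -0.43 on the log2 scale (SE 0.11, adjusted p 0.0196), in a test that called 10% of genes. Without XX E14.5 replicate 2 the adjusted p was 0.0552, and without XY E14.5 replicate 3 it was 0.0586. In the order of the fetal levels, the upper neighbours (XX E14.5, XY E14.5 and XY E16.5) did not differ beyond their spread, and XY E14.5 and XX E16.5 did (log2 fold change -0.36, adjusted p 0.00224, 35.8% of genes called). XX E14.5 and XY E16.5 gave -0.12 with an adjusted p of 0.244, in a comparison that called 36.3% of genes.

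Nr2f1 followed another order and was highest in the XY mesonephros at E14.5. The XX libraries at E14.5 gave 192, 213 and 220 CPM, and the XY libraries 222, 274 and 260 CPM. At E16.5 the XX libraries gave 200, 194 and 190 CPM and the XY libraries 212, 174 and 178 CPM. All 3 XY libraries at E14.5 lay above the other 9 fetal libraries, the lowest by only a little. The means were 252 ± 26.9 CPM (SD, n = 3) in XY and 208 ± 14.9 in XX at E14.5, then 195 ± 4.91 in XX and 188 ± 20.7 in XY at E16.5.

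Nr2f1 fell with age in XY cells. Its log2 fold change there was -0.42 (SE 0.0877, adjusted p 0.00221), 1.34-fold lower at E16.5. In XX cells it was -0.10 (SE 0.0878, adjusted p 0.398), with a 95% interval from -0.286 to 0.0883. XX against XY gave -0.27 at E14.5 (adjusted p 0.0819) and 0.05 at E16.5 (adjusted p 0.725), neither past the threshold of 0.05 by edgeR's quasi-likelihood test. With replicate number as a block in the fetal fit the adjusted p was 0.115 at E14.5 and 0.748 at E16.5. A block within only the E14.5 libraries, chosen after seeing the data, gave -0.264 with an adjusted p of 0.00862. The change of the sex difference with age was 0.33 (SE 0.124, adjusted p 0.12). Without XY E14.5 replicate 1, the lowest of its group, the sex difference at E14.5 was -0.36 with an adjusted p of 0.0155 and its change with age 0.41 with an adjusted p of 0.0278. Without XY E16.5 replicate 1 that change was 0.42, with an adjusted p of 0.0176. By the test without a block, no neighbours in the order of the 4 Nr2f1 levels differed beyond their spread. XY E14.5 was above both E16.5 groups (XX E16.5 against XY E14.5: -0.37, adjusted p 0.00381).

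**Figure D1:**
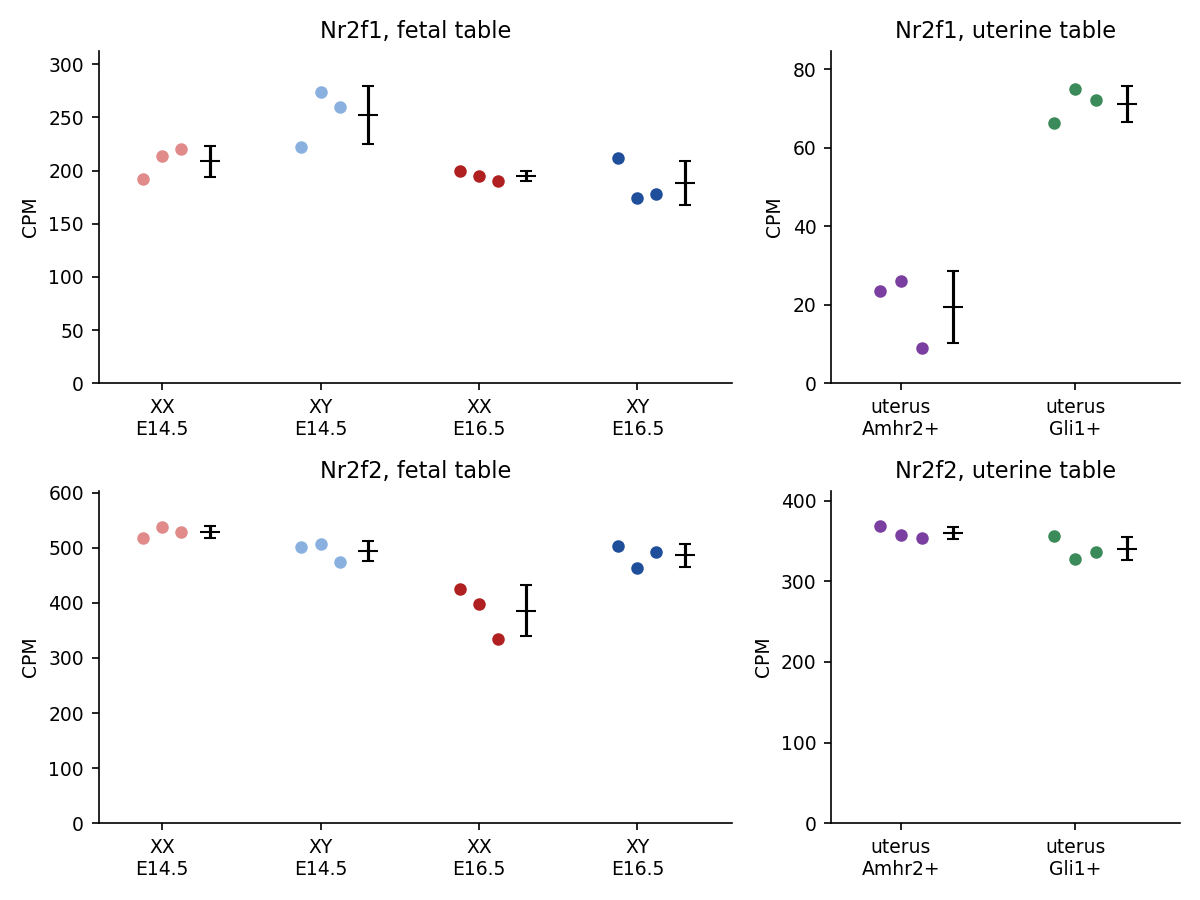
Nr2f1 (top) and Nr2f2 (bottom) in CPM (each axis from 0) in the fetal table (left) and the uterine table (right). Points are the 3 libraries of a group and bars the mean ± SD. Nr2f2 is lowest in XX at E16.5 (386 CPM), Nr2f1 highest in XY at E14.5 (252 CPM), and in the uterus Nr2f1 separates Amhr2+ (8.88 to 25.9 CPM) from Gli1+ cells (66.2 to 75 CPM).

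**Figure D2:**
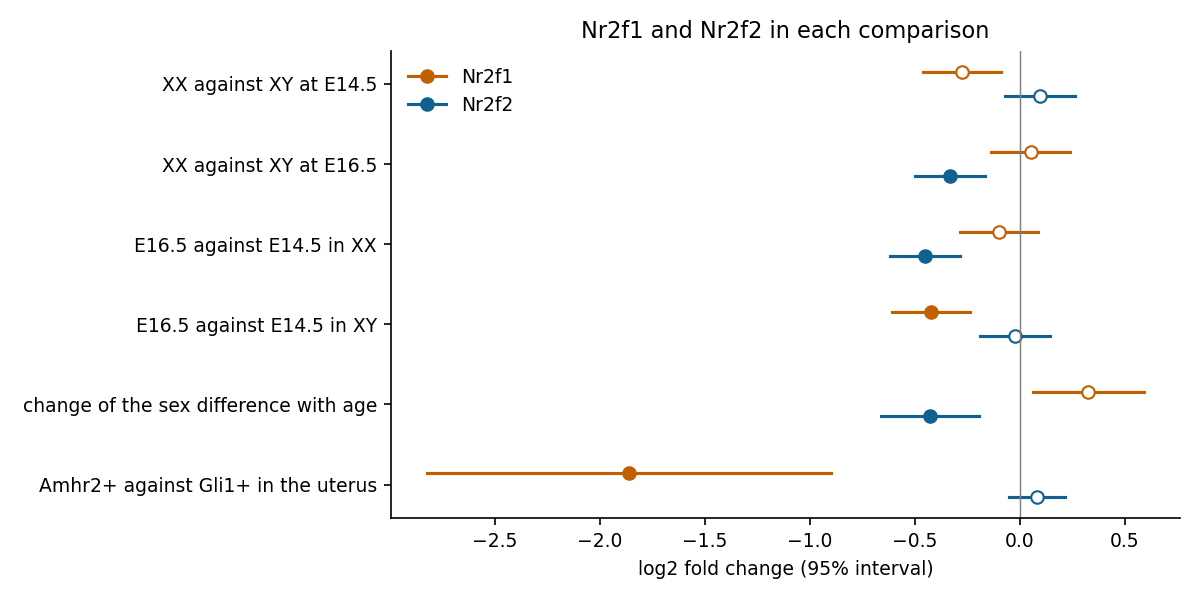
Log2 fold change of Nr2f1 (orange) and Nr2f2 (blue) in each comparison, first named group against the second, with 95% intervals. Filled points passed an adjusted p of 0.05. Nr2f2 was called in XX against XY at E16.5, with age in XX and for the change of the sex difference. Nr2f1 was called with age in XY and in the uterus.

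The share of Nr2f2 among the reads of both genes puts these patterns in 1 value that does not depend on scaling between libraries. In XX cells the share was 72.9, 71.6 and 70.6% at E14.5 and 68.1, 67.2 and 63.7% at E16.5. In XY cells it was 69.3, 64.9 and 64.6% at E14.5 and 70.4, 72.6 and 73.4% at E16.5. The groups did not overlap in either sex comparison or in either age comparison, and the share was higher in XX at E14.5 and lower in XX at E16.5. The mean share was 71.7 ± 1.17% in XX and 66.3 ± 2.66% in XY at E14.5, and 66.3 ± 2.29% in XX and 72.2 ± 1.58% in XY at E16.5 (SD, n = 3 each). An exact two-sided permutation test gave p = 0.1 for each of the 5 shares compared, uterus included, also after Benjamini-Hochberg adjustment, and 0.1 is the smallest p that 3 against 3 allows. Across the 12 fetal libraries the log2 levels of the 2 genes had a Pearson correlation of 0.343, a description over libraries that share groups.

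**Figure D3:**
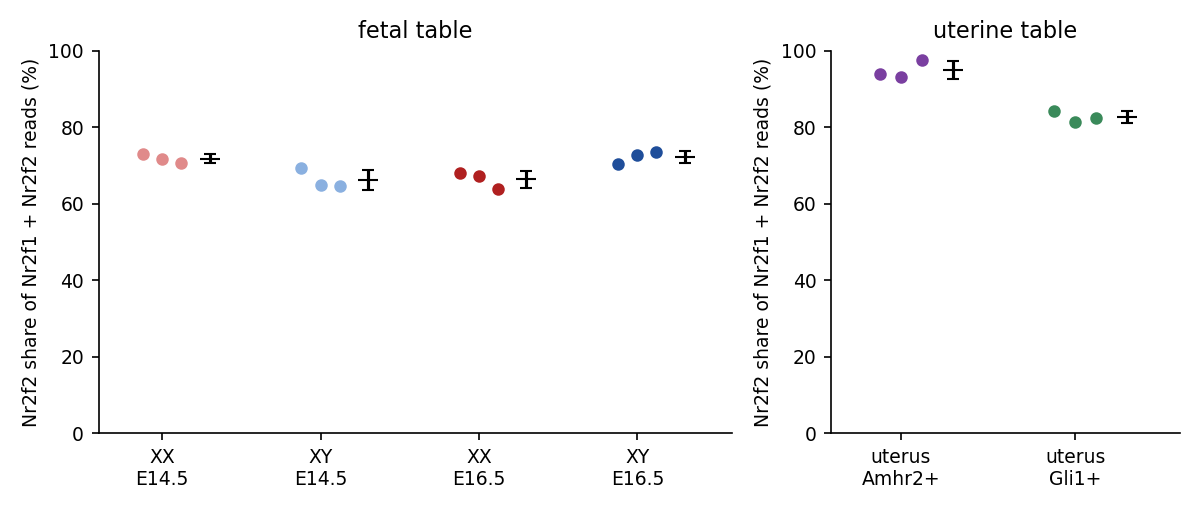
Nr2f2 reads as a percentage of Nr2f1 plus Nr2f2 reads in each library (axis 0 to 100%), fetal table left, uterine table right, with mean ± SD beside the 3 points. The share is higher in XX than in XY at E14.5 and lower at E16.5. In the uterine table it is higher in Amhr2+ (94.9%) than in Gli1+ cells (82.7%). Shares are not compared across the tables, whose kits differ in strand.

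In the uterus Nr2f1 was lower in Amhr2+ than in Gli1+ cells, and no difference in Nr2f2 passed the test. Nr2f1 gave 23.6, 25.9 and 8.88 CPM in the Amhr2+ libraries (910, 961 and 262 reads) and 66.2, 75 and 72.1 CPM in the Gli1+ libraries. All Amhr2+ libraries lay below all Gli1+ libraries, and Amhr2+ replicate 3 was far below the other two. The range of 8.88 to 25.9 CPM had an SD of 9.24 and stood against 71.1 ± 4.49 CPM in Gli1+ cells (SD, n = 3 each), a log2 fold change of -1.86 (SE 0.385), or 3.63-fold lower, with an adjusted p of 0.0225 by edgeR's quasi-likelihood test, where 23.9% of 16195 genes were called. Leaving out Amhr2+ replicate 1 gave -2.02 with an adjusted p of 0.0742, and leaving out Gli1+ replicate 2 gave -1.82 with an adjusted p of 0.0521. With no filter on low counts the adjusted p was 0.0736. With replicate number as a block the log2 fold change was -1.96 with an adjusted p of 0.0882. None of these settings passed. Without the low Amhr2+ replicate 3 the difference was -1.52 with an adjusted p of 4.37e-05.

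Nr2f2 gave 368, 357 and 354 CPM in Amhr2+ and 356, 328 and 337 CPM in Gli1+ libraries, and the groups overlapped. Its log2 fold change was 0.08 (SE 0.0586, adjusted p 0.346), with a 95% interval from -0.0521 to 0.215. The Nr2f2 share of both genes' reads was 94.9 ± 2.31% in Amhr2+ and 82.7 ± 1.49% in Gli1+ cells (SD, n = 3), a difference of 12.2 percentage points with no overlap. Other markers also differed between these sorted populations. The summed epithelial markers were at 49.2 to 49.8 CPM in Amhr2+ and 17.9 to 28.8 CPM in Gli1+ libraries, with all 6 genes detected in every library. Smooth muscle markers summed to 1120 to 1760 against 2090 to 2320 CPM, mesenchymal markers to 21200 to 23100 against 38300 to 42300 CPM, and blood endothelial markers to 23.8 to 29.6 against 36.7 to 44.9 CPM. Their part in the Nr2f1 difference was not tested, and in these bulk libraries fewer Nr2f1-expressing cells and less Nr2f1 RNA per cell cannot be told apart.

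Marker sums also differed between the fetal groups. Epithelial markers were lowest in XX at E16.5 (13.6 to 18.5 CPM) and highest in XY at E14.5 (31.4 to 39 CPM). They lay at 23.6 to 27.2 CPM in XX at E14.5 and 20.2 to 22.3 CPM in XY at E16.5, so no groups overlapped. Mesenchymal markers summed to 38300 to 44300 CPM in XX and 32000 to 39400 CPM in XY at E16.5. At E14.5 they summed to 28400 to 29900 CPM in XX and 24200 to 28400 CPM in XY. Blood endothelial markers were at 64.3 to 77.5 CPM in XX at E16.5 and at 81.8 to 123 CPM in the other 3 groups. The venous and lymphatic list (Ephb4, Aplnr, Prox1, Lyve1 and Flt4) was highest in XX at E16.5, at 250 to 258 CPM, against 206 to 238 CPM in the others. Smooth muscle markers ranged from 302 to 325 CPM in XX at E14.5 to 1700 to 2860 CPM in XY at E16.5. XX E14.5 replicate 3 stood apart in erythroid markers, which summed to 884 CPM there, while replicates 1 and 2 of its group had 17.5 and 5.02 CPM. Without that library Nr2f2 with age in XX was -0.45 (adjusted p 0.00187) and the change of its sex difference -0.43 (adjusted p 0.048). The part of these cells in the Nr2f1 and Nr2f2 changes was not tested.

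Each member has a long noncoding RNA gene beside its start on the opposite strand. In GENCODE vM21 these genes, A830082K12Rik beside Nr2f1 and B130024G19Rik beside Nr2f2, overlap the first part of the member. The tables carry them under the clone names RP23-471B6.2 and RP24-240G4.2, with spans that begin outside the member (chr13:78202374-78279391 and chr7:70386493-70489972). Whether strand was used in counting is not given in the sources used here, so reads of a member and its antisense neighbour could be mixed where they overlap.

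The ratio of Nr2f1 to RP23-471B6.2 reads overlapped between the fetal groups and was lower in Amhr2+ than in Gli1+ cells of the uterus. The tables are read each by itself, since the fetal kit was not stranded and the uterine kit was, which bears on reads of an antisense gene. In the 12 fetal libraries there were between 11.5 and 15.5 Nr2f1 reads per RP23-471B6.2 read, in overlapping groups. In uterine Gli1+ libraries the ratio was 10.4, 10.2 and 9.02, and in Amhr2+ libraries 3.71, 3.55 and 2.32. The uterine groups did not overlap, with means of 9.88 ± 0.756 and 3.19 ± 0.762 (SD, n = 3), and the exact two-sided permutation test gave p = 0.1, the smallest it can give (0.5 after adjustment over the 10 ratios compared). RP23-471B6.2 itself was at 5.83 ± 1.8 CPM in Amhr2+ and 7.23 ± 0.831 CPM in Gli1+ cells, a log2 fold change of -0.30 (adjusted p 0.36) against -1.86 for Nr2f1. In XY cells it fell with age by 0.39 on the log2 scale (adjusted p 0.01), beside 0.42 for Nr2f1. This ratio was chosen after the values had been seen.

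RP24-240G4.2, beside Nr2f2, fell with age in XX cells, as Nr2f2 did. It was at 83.5 ± 3.78 CPM in XX at E14.5 and 54.9 ± 4.19 CPM in XX at E16.5 (SD, n = 3), a log2 fold change of -0.61 with an adjusted p of 3.95e-05. In XY cells it went from 77.1 ± 4.48 to 65.4 ± 7.11 CPM, with XX below XY at E16.5 (-0.25, adjusted p 0.033). There were 5.7 to 7.92 Nr2f2 reads per read of it over the 12 fetal libraries. In XY cells the ratio was higher at E16.5 (7.47 ± 0.499) than at E14.5 (6.42 ± 0.208), with no overlap and an exact two-sided permutation p of 0.1 (0.5 after adjustment). The change of its sex difference with age was -0.37 with an adjusted p of 0.0582, beside -0.43 for Nr2f2.

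**Figure D4:**
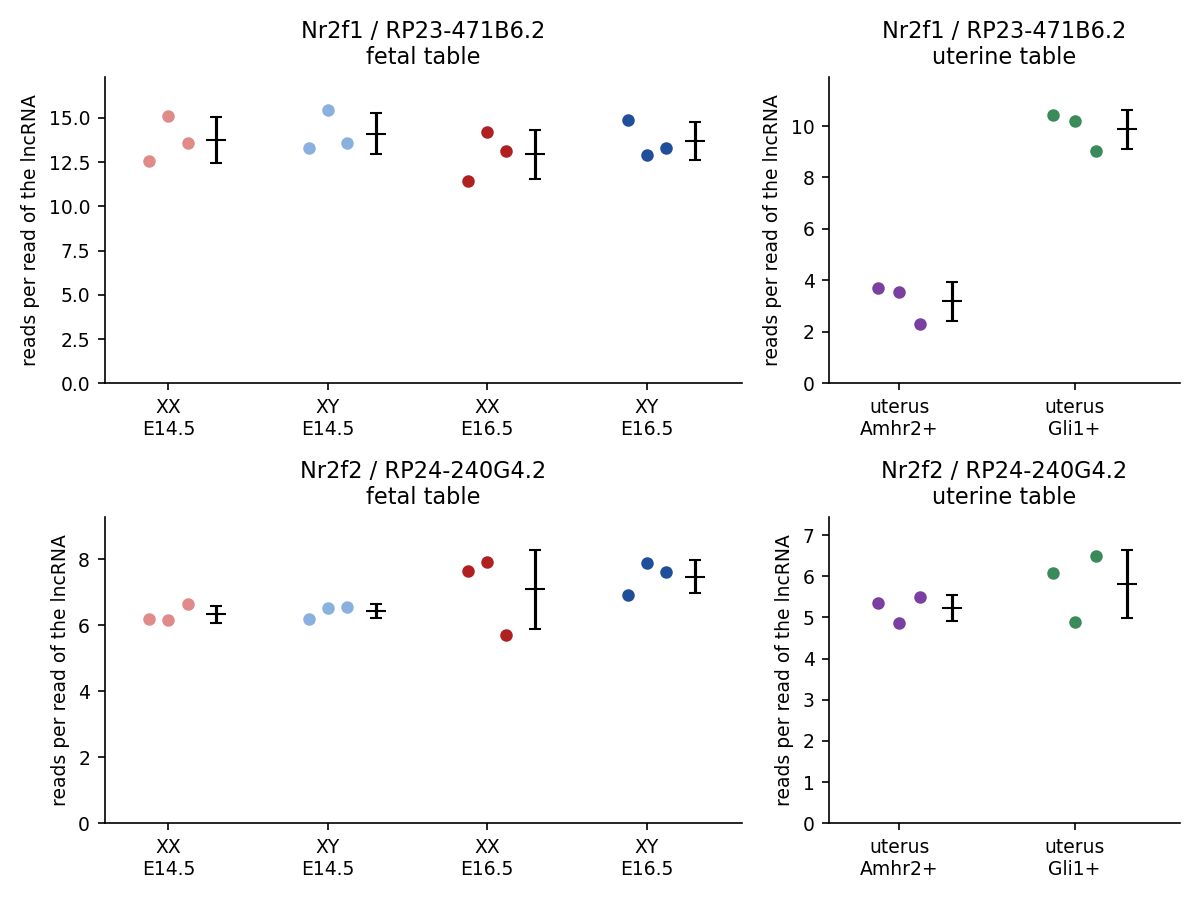
Reads of Nr2f1 per read of RP23-471B6.2 (top) and of Nr2f2 per read of RP24-240G4.2 (bottom) in each library, fetal table left, uterine table right, axes from 0, with mean ± SD beside the points. In the uterine table the Nr2f1 ratio averages 3.19 in Amhr2+ and 9.88 in Gli1+ cells. Levels are not compared across the tables, whose kits differ in strand.

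Other neighbours went in several directions. Within 500 kb the tables hold 10 genes beside Nr2f1 and 17 beside Nr2f2, none of whose listed spans overlaps a member, and most are noncoding. Of these, 3 beside Nr2f1 and 7 beside Nr2f2 had enough reads to be tested in the fetal libraries. Fam172a, the protein-coding neighbour of Nr2f1, stayed between 48.8 and 56 CPM as a group mean in the fetal cells and was called in no comparison. RP23-474J16.2, a lincRNA downstream of Nr2f2, rose with age in both sexes, by 1.42 in XX (adjusted p 4.9e-07) and 1.47 in XY (adjusted p 4.21e-07), from 4.86 to 13 CPM and from 4.27 to 12 CPM, while Nr2f2 fell in XX. RP24-240G4.4, on the strand of Nr2f2 and upstream of it, was lower at E16.5 in XX (-1.29, adjusted p 0.007), at 9 to 38 reads per fetal library. It lies within the span of RP24-240G4.2 on the other strand, and RP24-240G4.3 overlaps that span in part. Both had 0 reads in all 6 uterine libraries, which came from a stranded kit, while the fetal kit was not stranded, so their fetal reads cannot be told apart from those of RP24-240G4.2 where the spans overlap. RP24-286L23.3 fell with age in XX (-1.44, adjusted p 0.036), at only 3 to 20 reads per fetal library. In XY it changed about as much, by -1.485, but did not pass edgeR's quasi-likelihood test (adjusted p 0.0603). RP24-270A4.1, upstream of Nr2f1, was higher in uterine Amhr2+ cells (1.37, adjusted p 0.0389), at only 6 to 28 reads per uterine library.

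The list of open regions holds 11 peaks within 100 kb of Nr2f1 and 16 within 100 kb of Nr2f2. The median for 17847 tested genes was 12, and 50.4% of them had more peaks than Nr2f1 and 24.8% more than Nr2f2. Neither member has a peak on its outermost start, which 65.8% of these genes have. Within 1 kb of that start Nr2f1 has a peak, as 79.0% of these genes do, and Nr2f2 has none. The start of the shorter transcript Nr2f2-201 lies 819 bp from its nearest peak. Nr2f1 has 4 peaks upstream of its start, all within 10.3 kb and inside the antisense gene, and 7 downstream, 1 of them in its intron. Nr2f2 has 9 peaks upstream, the farthest 95.6 kb away and all within B130024G19Rik, and 7 downstream, 2 of them in its introns. Peak widths near Nr2f1 had a median of 299 bp (75 to 887 bp) and near Nr2f2 of 219 bp (115 to 790 bp), against 233 bp over the list. The widest peaks near each gene were rich in G and C: 67.3% for the 887 bp peak 36.2 kb downstream of the Nr2f1 start and 61.4% for the 790 bp peak 34.9 kb downstream of the Nr2f2 start.

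**Figure D5:**
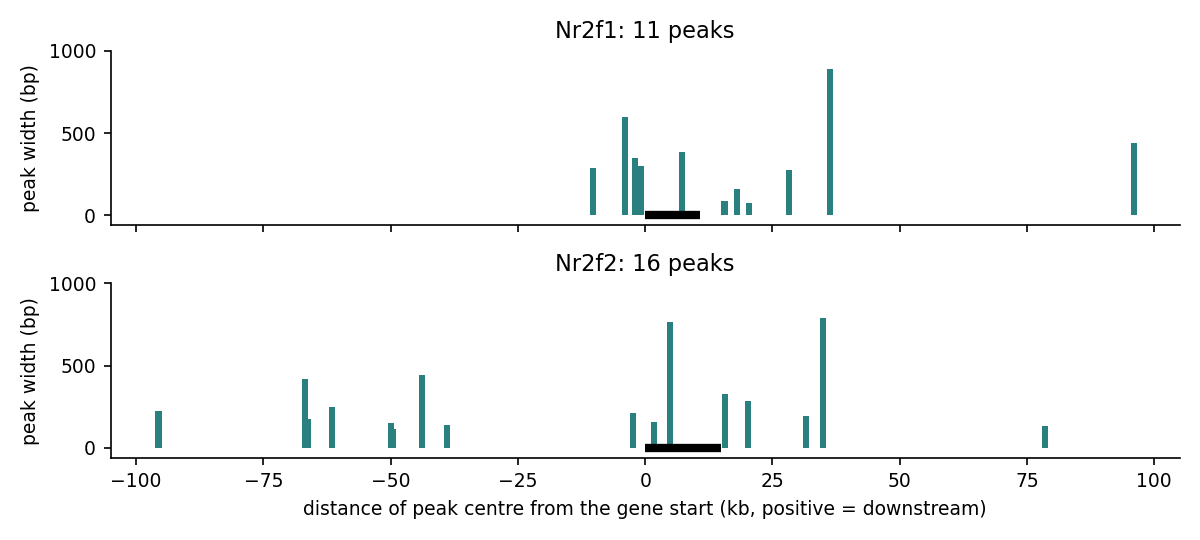
Peaks of the unified ATAC list within 100 kb of Nr2f1 (11 peaks) and Nr2f2 (16 peaks), placed by the distance of their centre from the outermost gene start in kb, downstream to the right. Bar height is peak width in bp (bar thickness is not to scale) and the black line is the gene. Peaks upstream of Nr2f1 lie close to its start, and those upstream of Nr2f2 spread to 95.6 kb.

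Motif words were searched on both strands of these peaks, with the share of 200 bp windows at the centre of all 70999 peaks as background. AGGTCA, the nuclear receptor half-site, was in 0 of 11 central windows near Nr2f1 and 1 of 16 near Nr2f2, against 11.6% of all central windows. Over the whole peaks, which differ in width, it was in 1 near Nr2f1 (the inverted repeat above) and in 3 near Nr2f2. ATCAAAG, the TCF/LEF word, was in 2 of 11 central windows near Nr2f1 and 0 of 16 near Nr2f2, against 2.97%. Over the whole peaks it was in 2 near Nr2f1 and 1 near Nr2f2, which were the intronic peak with the inverted repeat and both peaks with the shared 20-base run. TGANTCA, the AP-1 word, was in 1 central window near each gene, against 5.94%, and in 2 whole peaks near each. TGGGTGGTC, a GLI word, and AGGTCA repeated after 1 or 2 bases were in no peak near either gene. Only exact words were searched. Sites that differ from a word by a base were not looked for, in the shared 20-base run or elsewhere.

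Relatives and partners of the receptors were read from fixed lists of 61 genes, of which 55 were tested in the fetal and 54 in the uterine libraries. Values named below are log2 fold changes. Between the sexes at E14.5, 3 listed genes were higher and 9 lower in XX, where 2.59% of all genes were called higher and 3.69% lower. At E16.5, 17 were higher and 14 lower in XX, beside 13.2% and 14.1% of all genes. With age in XX, 17 rose and 14 fell, beside 21.0% and 18.6% of all genes. With age in XY, 10 rose and 16 fell, beside 13.1% and 10.2%. In the uterus 9 were higher and 19 lower in Amhr2+ cells, beside 10.1% and 13.7%, with a median of -0.11 against -0.0017 over all genes. The lists were chosen for this system with earlier results known, so these counts describe them only.

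Among the relatives, Nr2f6 and Nr2c2 were not called in any comparison of sex, age or uterine cells. Nr2c1 was higher in XX than XY at E16.5 (0.26, adjusted p 0.0137) and fell with age in XY (-0.28, adjusted p 0.0107). Nr2e1 and Nr2e3 had too few reads to be tested. Of the retinoid receptors, which share response elements with COUP-TFs, 3 of 5 tested were higher in XX at E16.5 and none lower: Rarb by 0.68, Rarg by 0.49 and Rxrb by 0.33, with a list median of 0.33 beside 0.01 over all genes. Of all genes, 13.2% were called higher and 14.1% lower in that comparison. In uterine Amhr2+ cells, where 13.7% of all genes were called lower, 3 of 5 were lower: Rarb at -0.57, Rxra at -0.56 and Rara at -0.25 (median -0.25).

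Of the 12 cofactors, none was called between the sexes at E14.5 and 4 were at E16.5: Zfpm1 (0.88) and Bcl11a (0.43) were higher in XX, and Ncoa1 (-0.49) and Hdac1 (-0.17) lower. Of all genes, 6.28% were called between the sexes at E14.5 and 27.3% at E16.5. Zfpm2 encodes FOG2, a zinc finger protein that binds COUP-TFII and GATA factors. It was at 3.78 ± 0.356 CPM in uterine Amhr2+ and 26.9 ± 3.9 CPM in Gli1+ cells (SD, n = 3), 7.11-fold lower (log2 fold change -2.83, adjusted p 9.25e-06). Zfpm1, its relative, was lower there too (-1.01, adjusted p 0.00452), and Bcl11b, which encodes the COUP-TF-interacting protein CTIP2, was higher (1.56, adjusted p 0.0231). The other 9 cofactors, among them Ncor1 and Hdac1, were not called in the uterus, where 23.9% of all genes were called. With age in XX, 1 of the 12 cofactors rose and 2 fell, beside 21.0% and 18.6% of all genes. In XY 1 rose and 4 fell, beside 13.1% and 10.2%. Among those that fell, Bcl11b changed by -2.59 in XX and -2.29 in XY (adjusted p 2.48e-08 and 9.99e-08 by edgeR's quasi-likelihood test).

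Of 8 tested genes of the hedgehog pathway, a known input to COUP-TFII, 4 were lower and none higher in XX than in XY at E16.5, where 14.1% of all genes were called lower. Among them were Hhip at -5.31, Ptch1 at -3.13 and Gli1 at -2.04, beside -0.33 for Nr2f2. With age in XX 5 of 8 fell and none rose, where 18.6% of all genes fell, with a median of -1.38 beside 0.0046 over all genes. At E14.5, where Nr2f2 was not called between the sexes, 3 of 8 were lower in XX and none higher, beside 3.69% of all genes called lower. In the uterus, where Nr2f2 was not called, 3 of 7 were lower in Amhr2+ cells, among them Gli1 at -0.76 and Gli2 at -0.30, beside 13.7% of all genes. The Gli1 locus drives the Cre of the Gli1+ groups.

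Genes of retinoid supply went both ways. With age in XX 5 of 7 rose and 1 fell, beside 21.0% and 18.6% of all genes. Aldh1a1, an enzyme that makes retinoic acid, rose by 3.38 in XX and by 3.26 in XY. In XX against XY at E16.5, Crabp1, a retinoic acid binding protein, was higher by 1.84 and Crabp2 by 0.30, and Aldh1a1 was lower at -0.80, with 7 tested. Of all genes, 13.2% were called higher and 14.1% lower there. In the uterus 3 were higher in Amhr2+ cells (Aldh1a3 by 1.05, Stra6 by 0.69 and Crabp2 by 0.50) and 3 lower (Aldh1a1 at -1.42, Crabp1 at -0.46 and Aldh1a2 at -0.38), beside 10.1% and 13.7% of all genes.

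Genes reported elsewhere to respond to COUP-TFs moved in both directions. At E16.5, 6 of 10 were higher in XX, led by Angpt1, a ligand of the vascular receptor Tie2, by 1.21, and 3 were lower, with Foxc1 at -1.14 (list median 0.57). Of all genes, 13.2% were called higher and 14.1% lower there. In the uterus 5 of 10 were lower in Amhr2+ cells and 2 higher (median -0.47), beside 13.7% and 10.1% of all genes. Nrp2, a co-receptor for VEGF and semaphorins, was at 10.6 ± 1.02 CPM in Amhr2+ and 74.8 ± 8.38 CPM in Gli1+ cells (SD, n = 3; -2.81, adjusted p 3.8e-06). Angpt1 (-1.61) and Eya1 (-1.57) were lower too, while Bmp2, a target of COUP-TFII in uterine stroma, was higher (1.01, adjusted p 8.53e-05).

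With age in XX, 3 of the 6 FGF ligands rose and 1 fell, beside 21.0% and 18.6% of all genes. In XY 4 rose and 1 fell, beside 13.1% and 10.2%. Of the 6, 2 rose most: Fgf10 by 2.81 in XX and 1.71 in XY, and Fgf7 by 2.68 in XX and 2.31 in XY. Of the 6, 4 were lower in XX than XY at E16.5 (Fgf9 at -1.80, Fgf1 at -1.66, Fgf18 at -1.39 and Fgf10 at -0.46) and none higher, beside 14.1% and 13.2% of all genes. In the uterus 2 of the 6 were lower in Amhr2+ cells (Fgf7 at -2.21 and Fgf2 at -0.34). Fgf18 was the 1 that was higher, by 0.78. Of all genes, 13.7% were called lower and 10.1% higher there. Of 4 hormone receptor genes, 3 were higher in XX at E16.5, beside 13.2% of all genes: Amhr2 by 2.88, Pgr by 2.02 and Esr1 by 1.26. In the uterus 2 of the 4 were higher in Amhr2+ cells (Amhr2 by 1.43 and Esr1 by 0.29) and 1 was lower, beside the same shares of all genes as for the FGF ligands. Amhr2 drives the Cre of that group.

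The genes whose fetal pattern was most like each member were taken by Pearson correlation of log2 CPM over the 12 fetal libraries, among 9995 genes of at least 10 CPM. For Nr2f1 they were Cxxc5 (0.906), Gng5 (0.906), Cnih2 (0.901), Trim39 (0.893) and Zcwpw1 (0.881). None of these 5 was called in the uterus, where their log2 fold changes ran from -0.18 to 0.23 beside -1.86 for Nr2f1. For Nr2f2 they were RP23-407H16.1 (0.941), Ptpn9 (0.938), Enc1 (0.937), Akap2 (0.925) and Plcl2 (0.925). Enc1 was higher (1.14, adjusted p 0.0201) and Plcl2 lower (-0.55, adjusted p 0.00173) in uterine Amhr2+ cells, and the other three were not called. These correlations rest on libraries that share groups and depth.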

How the data were processed

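The deposited tables hold raw read counts per gene. The submitters' processing notes name mm10, STAR 2.5, featureCounts, Subread 1.5.0-p1, Bowtie 1.2, SAMtools 1.3.1, Picard, bedtools 2.24.0 and MACS2 2.1.1, without roles. Per the labels' protocols the fetal libraries came from a non-stranded TruSeq RNA kit and the uterine ones from a TruSeq Stranded mRNA kit, so each table was fitted by itself. Counts were fitted with edgeR 4.0.16 in R 4.3.3 (TMM, filterByExpr, robust quasi-likelihood, Benjamini-Hochberg over all genes tested, threshold 0.05), after tests on simulated data. CPM use TMM library sizes. Alternatives were library-size scaling, DESeq2 1.42.0, no filter, no robust estimation, only the libraries compared, a replicate block and leaving out each library. The deposited peak list has coordinates only. At E16.5, same-numbered XX and XY libraries deviated together (correlations 0.284, 0.115 and 0.396), over the 0.1 set for taking numbers as pairs. The main fits did not use these pairs. The replicate block among the alternatives was shared by all fetal groups and was not a fit of the E16.5 pairs alone. Same-numbered XX libraries of the different ages did not deviate together (correlations 0.00307, -0.027 and -0.0103). Where the pairing comes from is not given in the labels. Exon lengths and gene models are GENCODE vM21. Named genes came from fixed lists (up to 4 called members by size of change), neighbours within 500 kb, the 5 most alike fetal genes per member and marker lists. Members, lists and rules were chosen with earlier results of these data known. Values of some list members are not reported here.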

Additional observations from a re-analysis of the deposited data

Results flagged for a closer look

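The Nr2f2 sex difference changed between the ages. The log2 difference of XX from XY at E16.5 minus that at E14.5 was -0.428, and the test of this change passed the threshold (edgeR's quasi-likelihood test, adjusted p 0.0196). It did not pass without XX E14.5 replicate 2 (0.0552) or without XY E14.5 replicate 3 (0.0586), and the difference at E14.5 alone (0.10, adjusted p 0.563) was not called. The Nr2f2 share of both genes' reads was 5.46 percentage points higher in XX than in XY at E14.5 and differed by -5.82 points at E16.5, with no overlap at either age. The difference between these 2 share differences was not tested.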

How the results depend on the processing

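Over 150 alternative fits of the 2 genes, 147 kept the sign and 140 kept the call. The 3 changes of sign were in values near 0 that were not called: Nr2f2 with age in XY was 0.00327 with no low-count filter and 0.0106 without XY E16.5 replicate 2, and Nr2f1 between the sexes at E16.5 was -0.000876 without XY E16.5 replicate 2. Nr2f1 in the uterus lost its call with no low-count filter (-1.84, adjusted p 0.0736); DESeq2 gave -1.86 with an adjusted p of 0.000322. The cause was not tested. With libraries left out in turn, the Nr2f1 values ran from -0.358 to -0.211 for the sexes at E14.5, from 0.262 to 0.421 for the change of the sex difference, from -0.000876 to 0.145 for the sexes at E16.5 and from -2.11 to -1.52 in the uterus. The Nr2f2 values ran from -0.516 to -0.333 for the change of the sex difference and from -0.0529 to 0.0106 with age in XY. Counts of genes called ran from 553 to 1678 (sexes at E14.5, 1121 with all libraries), from 1335 to 2687 (change of the sex difference, 1790) and from 1949 to 3521 (uterus, 3866). Leaving out any library but XY E14.5 replicate 1 took the first to between 553 and 686 genes; the others moved by over 1.5 times without XY E16.5 replicate 1 (2687), without Amhr2+ replicate 1 (1949) and without Gli1+ replicate 1 (2521).

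With the replicate block, Nr2f1 in the uterus was -1.96 and was not called (adjusted p 0.0882 by edgeR's quasi-likelihood test). Same-numbered uterine libraries correlated at 0.00176, 0.221 and 0.243, not all over the 0.1 set for pairs. The labels do not say whether these numbers mark pairs. The block in the fetal fit changed no call of either gene (Nr2f2 at E16.5: -0.336, adjusted p 0.00478). A block within only the libraries compared, chosen after seeing the data like the left-out libraries of the shares and ratios, gave -0.264 for Nr2f1 between the sexes at E14.5 with an adjusted p of 0.00862, and moved the genes called to 1902 there and to 2425 with age in XY (4168 without it). At E14.5 every library correlated best with its own number, at 0.0504 to 0.0725. Peaks of at least the median width numbered 7 near Nr2f2 in place of 16. With 3 libraries a group, an exact test of a share or ratio cannot go below 0.1, and Nr2f1 rests on 262 reads in its lowest library.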
